A study of Mus musculus with 8 samples.

Results

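T cell anergy genes were examined in CD4 T cells taken from hosts that do or do not make the insulin peptide these cells recognize. Members were 10 genes chosen by name: Izumo1r, Nt5e, Nrp1, Dgka, Dgkz, Cblb, Itch, Rnf128, Dtx1 and Ndrg1. All 10 were found among the 46625 gene names of the count table, which writes them in upper case (IZUMO1R, NT5E, NRP1, DGKA, DGKZ, CBLB, ITCH, RNF128, DTX1 and NDRG1). The cells carried the 8F10 receptor, which recognizes a peptide of insulin. Their source was bone marrow of 8F10 mice that lack the endogenous receptor alpha chain and carry the CD45.2 allele, depleted of T and B cells before transfer. Recipients carried CD45.1 and had been irradiated below the lethal dose, so host cells remained in them. One group of recipients was NOD, the diabetes-prone strain with native insulin. The other was B16A, NOD mice known to make an insulin with a changed residue in the B chain in place of the native one. The labels give NOD/ShiLtJ as the strain of every sample. After 6 weeks the 8F10 cells were sorted from the inguinal nodes of the groin, away from the pancreas. The labels name no ages. The comparison asks which transcripts differ in these T cells when the native peptide is present in the host. There were 8 RNA-seq libraries, 4 of each host, and each of 4 batches held 1 library of each host.

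Anergy is the state in which a T cell that met its antigen without co-stimulation survives but responds poorly to the next encounter. Calcium and NFAT signalling without full AP-1 activity, followed by the factors Egr2 and Egr3, is known to turn on a set of brakes. Diacylglycerol kinases convert diacylglycerol, the lipid that activates Ras and protein kinase C theta, into phosphatidic acid. Ubiquitin ligases mark signalling proteins downstream of the receptor for removal or inactivation. High surface folate receptor 4 (from Izumo1r) together with CD73 (from Nt5e) is used to identify anergic CD4 T cells in mice, and neuropilin-1 (from Nrp1) is found on many of them. Regulatory T cells carry the same 3 surface proteins.

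The members lie on 8 chromosomes of the mouse build mm10 (GENCODE vM21), and all are annotated as protein-coding. On chromosome 9 are Izumo1r (14885814 to 14903949) and Nt5e (88327197 to 88372092). On chromosome 2 are Dgkz (91932824 to 91975864) and Itch (155133509 to 155226855). Single members are Nrp1 on chromosome 8 (128358604 to 128503363), Dgka on 10 (128720134 to 128744855), Cblb on 16 (52031225 to 52208048), Dtx1 on 5 (120680202 to 120711927), Ndrg1 on 15 (66929318 to 66969640) and Rnf128 on X (139563316 to 139673145). Exons of Dgka overlap Pmel, those of Dgkz overlap Gm9821, and those of Ndrg1 overlap Gm17035 and Gm2895, all on the opposite strand, by at most 419 bases. Nrp1 overlaps the microRNA gene Mir1903 by 80 bases on its own strand. The use of strand in counting is not stated, so reads from these stretches cannot be assigned to a strand with certainty.

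RefSeq promoters of build GRCm38.p6, 250 bases before to 50 after each start site, matched 8 members with 12 sequences, and Itch and Ndrg1 had no entry. They were searched on both strands for GGAAA, the core letters bound by NFAT, the factor that starts the anergy programme. Sites are shown for a surface marker, a ligase and the co-receptor Nrp1, read on the gene's strand, with the match in capitals (TTTCC is GGAAA on the other strand):
Izumo1r, chr9:14903948-14903976, minus strand: gaatctaagttaTTTCCaagttctcacag
Cblb, chr16:52031306-52031334, plus strand: tttttcagttccTTTCCtcgttccacttt
Cblb, chr16:52031346-52031374, plus strand: agcctaggtccaTTTCCcaacgagttctt
Nrp1, chr8:128358889-128358917, plus strand: gaggaccaaccgGGAAAgcacgcggagag
GGAAA was present in 8 of the 12 member promoters, from 6 genes, and in 61.3% of all 32851 promoters of that table. No member promoter held GCGNGGGCG, the letters bound by the Egr factors, which 5.55% of all promoters held. The letters GTGGGAA, bound by the Notch partner RBPJ, were in 0 of the 12 and in 6.38% of all. In the promoter of Dtx1, a known Notch target, none of the 3 was found. Also searched was ACGTG, the core letters bound by the hypoxia factor HIF. It was in 4 of the 12 member promoters, from 3 genes, and in 19.6% of all. These matches describe letters and not binding, and GGAAA can overlap GTGGGAA by shared bases.

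Library totals ran from 4896593 to 6137666 counts in batches 1 to 3 and were 28301805 and 28094237 in batch 4. Batch 4 held fewer detected genes, 19751 and 20723 against 29729 to 33175. Levels are given as CPM, counts per 1000000 after TMM scaling, which adjusts library sizes for composition. Cd4, which defines helper T cells, ranged from 699 to 1204 CPM over the 8 libraries. Cd8a, which defines cytotoxic T cells, stood at 0 to 3.56 CPM. Cd8b1, the gene of the other CD8 chain, stood higher, at 62.6 to 186 CPM. Whether each library of a host is a separate animal is not stated. The p-values therefore reflect the variation among these libraries, part of which may be technical.

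None of the members passed the test between hosts. Low counts kept Rnf128 out, and of the 9 members tested 0 were called at an adjusted p under 0.05, against 0% of all 14607 genes tested (edgeR quasi-likelihood with batch as a block, Benjamini-Hochberg over all genes). Adjusted p ran from 0.725 (Ndrg1) to 0.998. An unadjusted p under 0.05 was reached by 3 members, Ndrg1 and Izumo1r with higher values in NOD hosts and Dtx1 with lower ones, while 5.87% of all tested genes reached it. The median log2 fold change of the 9 was -0.045, beside 0.0096 for all tested genes. The members did not move as a group: 3 log2 fold changes were positive and 6 negative. In batches 1 to 4, 6, 5, 4 and 5 of the 9 were higher in the NOD library. A single direction in every batch was seen for 4 members, against 14.3% of all tested genes. Izumo1r and Ndrg1 were higher in each NOD library (7.43% of all tested genes were), and Cblb and Dtx1 were lower (6.85%), Dtx1 by almost nothing in batch 1. With batches 1 to 3 alone, 0 of the 9 members passed, against 0.204% of 15716 genes tested. In sorted bulk cells, a change in the share of cells that express a gene and a change in RNA per cell cannot be told apart.

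**Figure D1:**
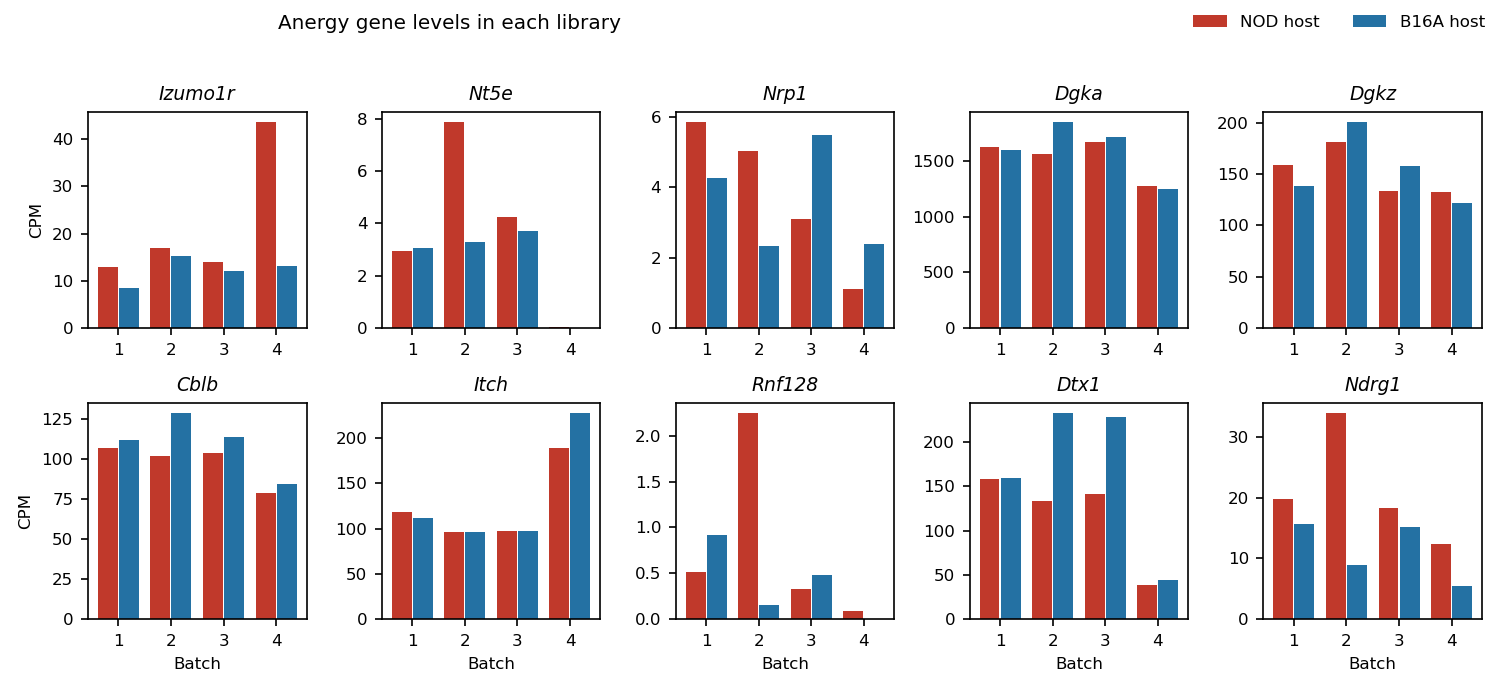
CPM of each of the 10 anergy genes (vertical axis, a scale per panel, from 0) in the NOD (red) and B16A (blue) library of each batch (horizontal axis). Each bar is 1 library and has no error bar. Itch is highest and Dtx1 lowest in the batch 4 libraries of both hosts, and Izumo1r is highest in the NOD library of batch 4.

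Izumo1r codes for folate receptor 4, a surface protein of anergic and regulatory T cells that despite its family does not serve as a general folate transporter. It stood at 12.9, 17.0, 13.9 and 43.5 CPM in the NOD libraries of batches 1 to 4. In the B16A libraries it stood at 8.37, 15.3, 12.0 and 13.1 CPM. The NOD library was higher in each batch, but the groups overlapped, and the gap was small in batches 2 and 3. Means were 21.8 ± 14.6 and 12.2 ± 2.89 CPM (SD, n = 4 each), and the log2 fold change was 0.71 with a standard error of 0.28 (95% interval 0.11 to 1.32). In edgeR the unadjusted p was 0.0247 and the adjusted p 0.811. Within-batch differences of log2 CPM, NOD minus B16A, were 0.61, 0.15, 0.21 and 1.72. The batch 4 pair decided the size: without it the log2 fold change was 0.33 (standard error 0.26, edgeR unadjusted p = 0.221). Both batch 4 libraries also carried far more Cd69, an early activation marker. It reached 4781 and 3734 CPM there and 88.2 to 357 CPM in the other 6. Its part in the Izumo1r value was not tested.

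Nt5e codes for CD73, the ectoenzyme that makes adenosine from AMP. The NOD libraries held 17, 42, 26 and 1 reads of it, and the B16A libraries 20, 21, 23 and 0. In CPM that was 2.93, 7.85, 4.25 and 0.045 in NOD hosts and 3.04, 3.28, 3.72 and 0 in B16A hosts. Only the NOD library of batch 2 stood clear of the others, and the deeper batch 4 libraries were almost empty of it. A count of 0 in the B16A library of batch 4 allows up to 0.126 CPM (3 counts, counting error only). The log2 fold change of 0.57 had a 95% interval from -0.76 to 1.90 (edgeR, adjusted p = 0.961). Without batch 2 it was 0.24, and with the other batches left out in turn it reached at most 0.85.

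Nrp1 codes for neuropilin-1, a co-receptor for semaphorins and VEGF. It stood at 5.85, 5.05, 3.11 and 1.12 CPM in NOD hosts and 4.26, 2.34, 5.50 and 2.39 CPM in B16A hosts. NOD was higher in batches 1 and 2 and lower in batches 3 and 4. The log2 fold change was -0.11 with a 95% interval from -1.28 to 1.07 (edgeR, adjusted p = 0.998). Its sign turned with the processing, to 0.24 without batch 4.

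The log2 fold changes of both diacylglycerol kinases lay near 0. Dgka codes for the alpha isoform, abundant in resting T cells, which limits Ras signalling after receptor engagement. Its levels were 1626, 1560, 1671 and 1274 CPM in NOD hosts and 1597, 1848, 1713 and 1253 CPM in B16A hosts. The groups overlapped, and both batch 4 libraries were the lowest of their host. The log2 fold change was -0.057 (standard error 0.13, 95% interval -0.34 to 0.23, edgeR adjusted p = 0.996), which places the ratio of NOD to B16A between 0.789 and 1.17. Dgkz codes for the zeta isoform, the other main kinase of this lipid in T cells. It stood at 159, 181, 134 and 133 CPM in NOD hosts and at 138, 200, 158 and 122 CPM in B16A hosts. NOD was higher in batches 1 and 4 and lower in batches 2 and 3, with a log2 fold change of -0.014 (95% interval -0.31 to 0.28, edgeR adjusted p = 0.998).

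Among the ubiquitin ligases Dtx1 had the smallest p. Dtx1 codes for Deltex1, a RING ligase induced by Notch and by NFAT that is known to promote anergy. It stood at 159, 134, 142 and 38.4 CPM in NOD hosts. In B16A hosts it stood at 159, 233, 228 and 44.7 CPM. The hosts were level in batch 1, B16A was higher in batches 2 and 3, and both libraries of batch 4 were far below the rest. Within-batch differences of log2 CPM were -0.0050, -0.80, -0.68 and -0.22. Means were 118 ± 54.2 and 166 ± 87.7 CPM (SD, n = 4 each), and the log2 fold change was -0.43 with a standard error of 0.16 (95% interval -0.76 to -0.096). In edgeR the unadjusted p was 0.0152 and the adjusted p 0.767. Without batch 4 the log2 fold change was -0.50 (edgeR, unadjusted p = 0.00361, adjusted p = 0.235).

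Cblb codes for Cbl-b, a RING ligase that restrains PI3 kinase and phospholipase C signalling and makes T cells depend on CD28. NOD libraries held 107, 102, 103 and 78.5 CPM, and B16A libraries 112, 128, 114 and 84.4 CPM. The NOD library was the lower one in each batch by a small margin, and the groups overlapped through batch 4. The log2 fold change was -0.16 (standard error 0.14, 95% interval -0.45 to 0.13, edgeR adjusted p = 0.948). Itch codes for a HECT ligase that acts on JunB and phospholipase C gamma 1. Its levels were 118, 96.3, 97.9 and 189 CPM in NOD hosts and 111, 96.0, 97.4 and 227 CPM in B16A hosts. The hosts were nearly level in batches 1 to 3, and both batch 4 libraries stood above all others. Its log2 fold change was -0.045 (95% interval -0.33 to 0.24, edgeR adjusted p = 0.996), and 0.034 without batch 4.

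Rnf128 codes for GRAIL, a membrane-bound ligase named for anergy in lymphocytes. Reads numbered 3, 12, 2 and 2 in the NOD libraries and 6, 1, 3 and 0 in the B16A libraries of batches 1 to 4. When every gene with a read was tested, its log2 fold change was 1.01 with a 95% interval from -1.36 to 3.37 (edgeR, unadjusted p = 0.404).

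Ndrg1, a cytoplasmic protein gene that rises in hypoxia and under p53 and is known as a factor that keeps T cells anergic, had the smallest p of the members. It stood at 19.8, 33.8, 18.3 and 12.3 CPM in NOD hosts. In B16A hosts it stood at 15.7, 8.89, 15.2 and 5.41 CPM. The NOD library was higher in every batch, though the groups overlapped. Means were 21.1 ± 9.11 and 11.3 ± 5.0 CPM (SD, n = 4 each). The log2 fold change was 0.92 with a standard error of 0.29 (95% interval 0.30 to 1.54, edgeR unadjusted p = 0.00645, adjusted p = 0.725). Within-batch differences of log2 CPM were 0.33, 1.91, 0.26 and 1.16, so the batch 2 and batch 4 pairs carried most of it. The libraries of these batches also differed in makeup. Gm10800, a gene model, took 17.1% of the counts in the NOD and 5.87% in the B16A library of batch 2, and 0.00205% and 0.00469% in batch 4. Actb took 8.98% and 8.33% in batch 4 and 0.773% to 1.51% elsewhere. The part of this in the Ndrg1 value was not tested. Leaving out batch 2 gave 0.60 (edgeR, unadjusted p = 0.0603), and leaving out batch 4 gave 0.83 (unadjusted p = 0.00617, adjusted p = 0.287).

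**Figure D2:**
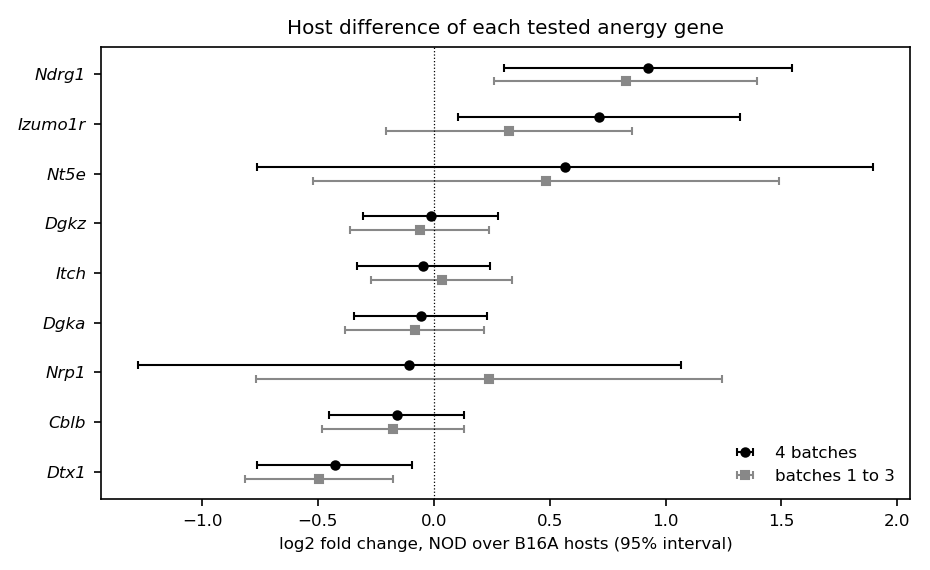
Log2 fold change (horizontal axis, NOD over B16A hosts) of the 9 tested anergy genes, with 95% intervals from the edgeR fit with batch as a block. Black circles use 4 batches and grey squares batches 1 to 3. The intervals of Ndrg1, Izumo1r and Dtx1 miss 0 with 4 batches, and that of Izumo1r spans 0 in batches 1 to 3.

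**Figure D3:**
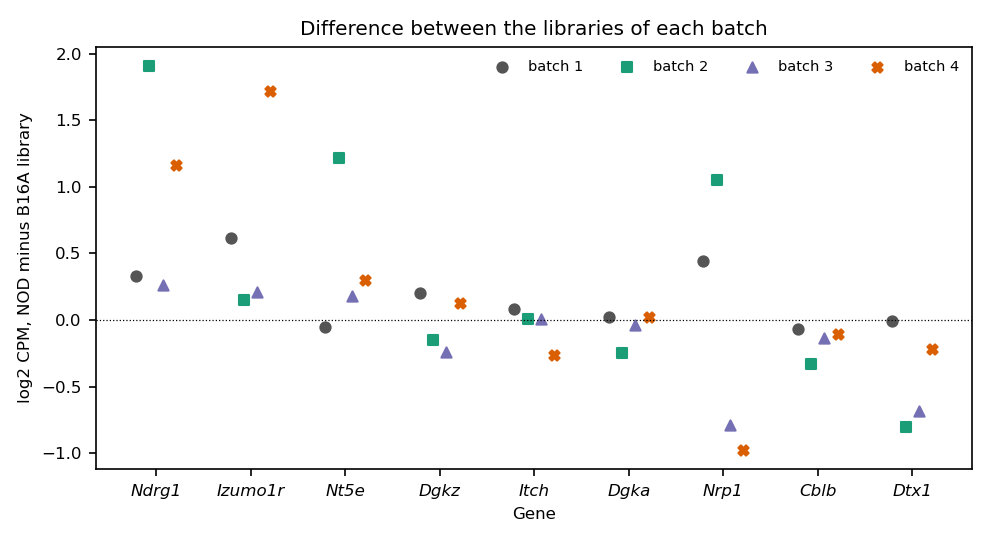
Difference of log2 CPM between the NOD and B16A library of each batch (vertical axis) for the 9 tested anergy genes (horizontal axis). Each marker is 1 pair of libraries: circles, squares, triangles and crosses stand for batches 1 to 4, with no error bars. Ndrg1 and Izumo1r lie above 0 and Cblb and Dtx1 below 0 in every batch, while Nrp1 lies on both sides. Dtx1 is at -0.0050 in batch 1.

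Scaled to exon length, the members spanned a wide range of levels, with Dgka far above the others. In batches 1 to 3 Dgka averaged 351 CPM per kilobase of exon (range 328 to 388 over 6 libraries). Dtx1 followed at 33.3 (25.3 to 44.1) and Dgkz at 25.8 (21.3 to 31.9), whose ranges overlapped. Cblb and Itch did not differ beyond their spread, at 10.6 (9.73 to 12.2) and 10.6 (9.88 to 12.1) CPM per kilobase. Next came Izumo1r at 5.71 (3.61 to 7.33) and Ndrg1 at 2.82 (1.35 to 5.13), also with overlapping ranges. Lowest and overlapping were Nt5e at 0.486 (0.340 to 0.913), Nrp1 at 0.445 (0.239 to 0.598) and Rnf128 at 0.223 (0.045 to 0.648). The order changed in batch 4, where Itch at 19.5 and 23.4 CPM per kilobase stood above Dtx1 at 7.28 and 8.48.

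In batches 1 to 3 Nt5e, Nrp1 and Rnf128 stood near or below the median level of genes that mark other cell types. Ndrg1 stood within their range there. B cell, myeloid and dendritic, and endothelial and stromal lists held 25 markers. Of these, Pecam1 and Cst3, which stood at 269 to 403 and 27.6 to 130 CPM, were set aside after their values were seen. The remaining 23 had a median of 0.528 CPM per kilobase in batches 1 to 3 (0 for Ccl19 to 4.41 for C1qa) and of 0.0146 in batch 4. Nrp1 stood above that batch 4 median, at 0.114 in the NOD and 0.244 in the B16A library. In the NOD library of batch 4 Ndrg1, at 1.87, was above the highest of the 23, at 0.984. It was below the 2 markers set aside, Pecam1 at 45.6 and Cst3 at 94.8. The summed level of the 23 was 65.7, 138, 69.0 and 9.05 CPM in NOD hosts and 70.3, 84.1, 73.3 and 6.66 CPM in B16A hosts. The NOD library of batch 2 was thus the highest of all, and 17 of the 23 markers were highest there among batches 1 to 3. Nt5e, Rnf128 and Ndrg1 were highest in that same library, and Izumo1r, at 17.0 CPM, was highest there among batches 1 to 3. The part of that library in their values was not tested. Whole lists gave 3.85 to 29.5 CPM in NOD and 2.18 to 15.0 CPM in B16A hosts for 7 B cell genes. For 9 myeloid and dendritic genes the sums were 87.4 to 121 and 60.2 to 132 CPM, and for 9 endothelial and stromal genes 288 to 390 and 271 to 429 CPM. The 6 CD8 T and NK cell genes summed to 68.1 to 188 and 74.4 to 126 CPM, most of it Cd8b1, and the 9 CD4 T cell genes to 5263 to 16707 and 4658 to 12637 CPM.

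Regulatory T cells share Izumo1r, Nt5e and Nrp1, and their 9 markers were set beside these members. Of these, 7 had a higher mean in NOD hosts. The sum was higher in the NOD library of each batch, at 88.6, 106, 87.6 and 116 CPM against 75.5, 75.7, 71.0 and 107 CPM in B16A hosts. Of this sum Tnfrsf18 alone gave 44.7, 26.4, 43.8 and 82.8 CPM in NOD and 41.1, 18.6, 23.8 and 73.6 CPM in B16A hosts. The sum of the CD4 T cell markers was also higher in each NOD library, at 6999, 5263, 9214 and 16707 CPM against 6308, 4658, 6364 and 12637 CPM. Of this sum Trbc1 alone gave 2402, 1620, 3546 and 1875 CPM in NOD and 1857, 846, 2092 and 1904 CPM in B16A hosts. Cd4 itself and Cd3e were lower in the NOD library in batches 1 and 2 and higher in batches 3 and 4. Like Izumo1r, Il2ra, Tnfrsf18 and Gpr83 were higher in the NOD library of each batch, and none passed. Il2ra, the alpha chain of the IL-2 receptor, had a log2 fold change of 0.85 (standard error 0.36, edgeR unadjusted p = 0.0358). Without batch 4 that of Il2ra was 0.44 (standard error 0.27, edgeR unadjusted p = 0.105). Tnfrsf18, which codes for GITR, had one of 0.41 (standard error 0.18) and Gpr83 one of 0.44 (standard error 0.37). Ikzf4, another of the 9, went the other way at -0.47 (standard error 0.33), with the NOD library lower in 3 of 4 batches. Ikzf2 and Lrrc32 were higher in the NOD library in 3 batches and Itgae in 2. Foxp3, the defining factor of this lineage, stood at 3.27, 4.30, 2.78 and 0 CPM in NOD hosts and 2.28, 8.27, 2.43 and 0.42 CPM in B16A hosts. It was lower in the NOD library in batches 2 and 4 and higher in batches 1 and 3. Ctla4 was nearly absent from batches 1 to 3, with at most 0.19 CPM, and reached 3.27 and 2.18 CPM in batch 4. The part of regulatory T cells in the values of Izumo1r, Nt5e and Nrp1 was not tested.

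**Figure D4:**
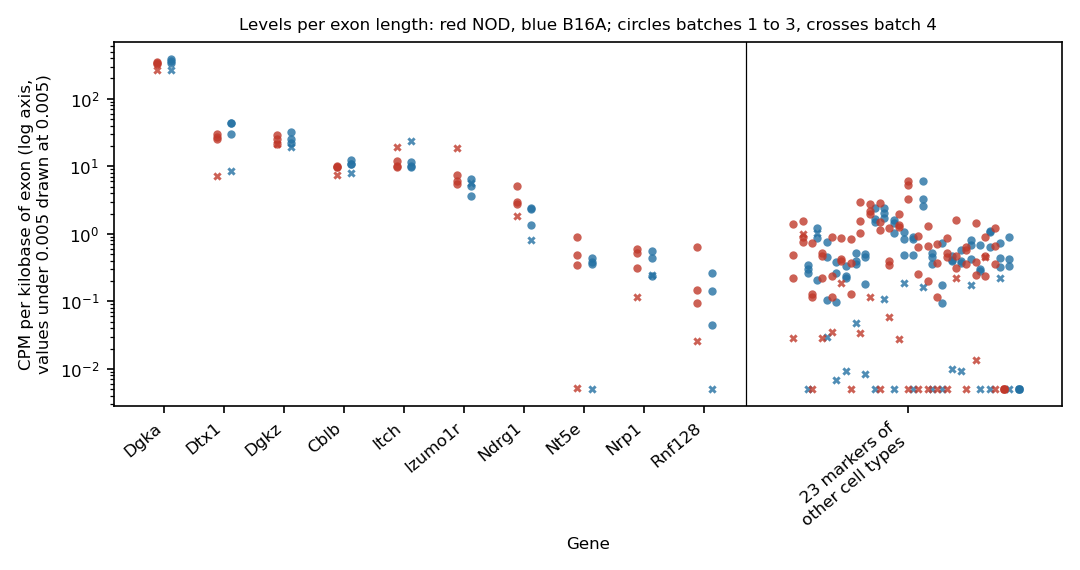
CPM per kilobase of exon (vertical log axis, values under 0.005 drawn at 0.005) for the 10 anergy genes in order of level and, right of the line, for 23 markers of B, myeloid, dendritic, endothelial and stromal cells (horizontal axis). Each point is 1 library, red NOD and blue B16A, circles for batches 1 to 3 and crosses for batch 4. In batches 1 to 3 Nt5e, Nrp1, Rnf128 and Ndrg1 lie within the range of those markers, which had a median of 0.528 there. In the NOD library of batch 4 Ndrg1, at 1.87, lies above the highest of the 23, at 0.984. Pecam1 and Cst3, set aside after their values were seen, are not drawn and stood higher there, at 45.6 and 94.8.

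The wider pathway was covered by 9 lists of 103 genes, 4 of them in more than 1 list, and 88 were tested. None was called (edgeR, lowest adjusted p = 0.683), and 9 of the 88 had an unadjusted p under 0.05, beside 5.87% of all tested genes. Of 15 transcription factors of the anergy programme, 13 had a negative log2 fold change, with a median of -0.15, and 0 passed. Nr4a3, an orphan receptor gene induced by receptor signalling, stood at 41.6, 16.5, 9.15 and 57.2 CPM in NOD and at 46.7, 31.7, 24.6 and 90.1 CPM in B16A hosts. It was lower in the NOD library of each batch (log2 fold change -0.76, standard error 0.21, edgeR unadjusted p = 0.00227). Nfatc2, the NFAT1 gene, was likewise lower in each batch, with a log2 fold change of -0.42 (standard error 0.14, edgeR unadjusted p = 0.00803). Nr4a2, of the same receptor family as Nr4a3, went the other way, with a log2 fold change of 0.96 (standard error 0.40, edgeR unadjusted p = 0.0294) and the NOD library higher in 3 of 4 batches. For Egr2 the log2 fold change was -0.040 (standard error 0.36) and for Egr3 -0.42 (standard error 0.56).

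Partners of the ligases and kinases showed no call either. Of 16 tested ligase relatives 11 had a negative log2 fold change (median -0.085). Notch1, the receptor upstream of Dtx1, stood at 126, 100.04, 95.4 and 33.6 CPM in NOD and 134, 238, 161 and 40.1 CPM in B16A hosts. It was lower in the NOD library of each batch, and as with Dtx1 the batch 1 pair was close and batch 4 lowest (log2 fold change -0.59, standard error 0.18, edgeR unadjusted p = 0.00578, adjusted p = 0.710). Cbl, the close relative of Cblb, had a log2 fold change of -0.39 (standard error 0.16), with the NOD library higher in batch 1 and lower in the other 3. On the diacylglycerol route, 10 of 19 genes were negative with a median of -0.15, led by Mapk3 (ERK1) at -0.36 and Plcg1 at 0.28. Among the 10 ligase substrates the median was -0.048. Cd3e had the smallest unadjusted p, with a log2 fold change of 0.31, and Plcg1 the next, at 0.28.

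Surface and effector genes divided by level. The list of inhibitory receptors held 9 surface genes, among them Tnfrsf18 and Cd200, which are not themselves inhibitory receptors. Of the 9, Lag3, Pdcd1, Ctla4, Tigit and Havcr2 were too low to test, with no library above 5.87 CPM. The other 4, Btla, Cd5, Cd200 and Tnfrsf18, had a median of 0.38, and only Cd5 was negative, at -0.18. Btla, an inhibitory receptor for HVEM, stood at 44.6, 54.4, 58.5 and 113 CPM in NOD and 40.5, 41.2, 44.7 and 82.5 CPM in B16A hosts, higher in NOD in each batch (log2 fold change 0.35, standard error 0.15, edgeR adjusted p = 0.844). Cd200 had a log2 fold change of 0.85 (standard error 0.37). Cytokine genes that anergic cells fail to express gave little signal in either host: Il2, Ifng, Il4, Il21, Il3 and Csf2 reached at most 2.10 CPM in any library. Cd40lg (-0.061) and Tnf (-0.10) were tested and had adjusted p of 0.996 in edgeR. In the adenosine route 5 of 7 were positive (median 0.25), with Adora2a, the main adenosine receptor of T cells, at 0.48 and Pde4b at -0.25. The 10 Nrp1 partners had a median of -0.066, with Sema3a at 1.16 (standard error 0.60) and Vegfa at -1.29 (standard error 0.81). For 9 tested Ndrg1 relatives and hypoxia targets the median was 0.0057, with Ndrg2 at 0.39 (standard error 0.21) and higher in the NOD library of each batch.

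**Figure D5:**
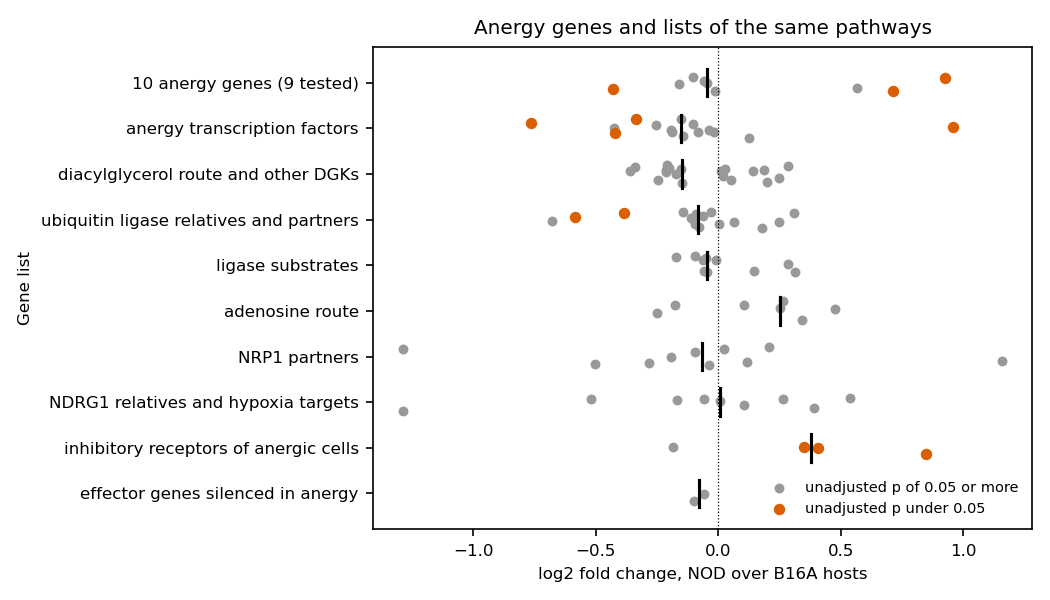
Log2 fold change (horizontal axis, NOD over B16A hosts) of each tested gene of the anergy members and of 9 pathway lists (vertical axis). Each point is 1 gene, orange where the unadjusted p was under 0.05 and grey otherwise, and black lines are medians. No gene shown passed after adjustment. The medians run from -0.15 for the transcription factors to 0.38 for the list of inhibitory receptors, which also holds Tnfrsf18 and Cd200.

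The genes most like Ndrg1 across the 8 libraries were Cdc14a, Armcx2 and Tmie, with root mean square differences of centred log2 CPM of 0.351, 0.359 and 0.388. The median over 6055 candidates with a mean of at least 20 CPM was 0.968. Tmie stood at 96.9, 87.0, 106 and 46.2 CPM in NOD and 81.8, 47.0, 62.8 and 34.8 CPM in B16A hosts, higher in NOD in each batch. Armcx2 stood at 27.4, 32.2, 25.2 and 19.7 CPM in NOD and 23.9, 22.5, 20.7 and 8.55 CPM in B16A hosts. Cdc14a had within-batch differences of log2 CPM of 0.067, 0.98, 0.077 and 0.33.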

How the data were processed

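Per the labels' protocols, SeqPlex-amplified cDNA of the sorted cells gave single-end reads. The authors deposited raw read counts per gene, 1 column per library. The submitters' processing notes name STAR, HTSeq, DESeq2 and mm10. Not given in the sources used here are versions, annotation and strand setting. The members and lists were chosen with earlier results of these data known.

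Counts were tested with edgeR 4.0.16 (R 4.3.3; glmQLFit with robust estimation, glmQLFTest) after filterByExpr, which kept 14607 of 46625 genes, and TMM. The labels' batch number entered as a block, since each batch holds 1 library of each host; deviations from the host means correlated between partners across genes with r = 0.625, 0.702, 0.611 and 0.906. Within batches 1 to 3, non-partners gave similar values (r = 0.465 to 0.741), so the pairing rests on the labels. Standard errors and intervals derive from the F statistic. Within-batch differences use log2 CPM with a prior count of 2. Exon lengths are unions of GENCODE vM21 exons. Alternatives included DESeq2 1.42.0 and limma 3.58.1. All members are named. Of each list the 2 genes with the smallest p are named. Others were named after their values were seen (Nr4a2, Egr2, Egr3, Foxp3, Ctla4, Il2ra, Tnfrsf18, Gpr83, Ikzf2, Ikzf4, Itgae, Lrrc32). So were Cd5, Cd8b1, Trbc1, Gm10800, Actb, Cd69, Pecam1, Cst3, Ccl19 and C1qa. On simulated data of this design 75% of genes changed 2-fold and 100% of those changed 4-fold were recovered among 14182 genes tested, with 7 false calls. Changed genes were drawn only from those with a mean of at least 100 counts, and every gene was given the same spread between libraries. These shares therefore do not cover members with few reads, such as Nt5e, Nrp1 and Rnf128. All 28 pairs of libraries differed by more than sampling noise (lowest chi-square per degree of freedom 8.54).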

Additional observations from a re-analysis of the deposited data

Results flagged for a closer look

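A single library stood far from the other 3 of its host in 3 of the 20 member and host groups checked. Chance gives about 1 in 20 where libraries are alike. All 3 were batch 4 libraries, which differed from the rest in depth and makeup, so that rate is no guide here. Izumo1r was high at 43.5 CPM in the NOD library, with the next at 17.0 CPM. Cblb was low at 78.5 CPM in the NOD library, with the next at 102 CPM. Itch was high at 227 CPM in the B16A library, with the next at 111 CPM. The NOD library of batch 4 was likewise the highest of its host for Itch, at 189 CPM.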

How the results depend on the processing

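No member was called under the 12 alternatives. In DESeq2 this covers 5 of the 9 members, since Izumo1r, Nt5e, Nrp1 and Ndrg1 got no adjusted p there. Izumo1r, Nt5e, Ndrg1, Cblb and Dtx1 kept their direction in all 12. The fit without the replicate block, which drops the pairing by batch, called 0 genes and 0 members with a member median of -0.028 and changed no call; there Nrp1 turned to 0.057. Limma voom with the block called 9 genes, with a median of 0.0078, Nrp1 at 0.011 and Itch at 0.0078. DESeq2 with the block called 27 genes and no filter on low counts gave 14. Without the block and without batch 4 the median was 0.0375, Nrp1 0.21 and Itch 0.0375. Leaving out 1 batch at a time gave 0 to 32 called genes (32 without batch 4), member medians from -0.097 to 0.062, and values from -0.49 to 0.24 for Nrp1, -0.097 to 0.062 for Dgkz, -0.096 to 0.0035 for Dgka and -0.098 to 0.034 for Itch. Ndrg1 ran from 0.60 to 1.15, Izumo1r from 0.33 to 0.91, Nt5e from 0.24 to 0.85, Cblb from -0.20 to -0.10 and Dtx1 from -0.58 to -0.31. The cause of these changes was not tested. In the block fit leaving out 1 library leaves its partner without weight, so pairs were left out. Nt5e, Nrp1 and Rnf128 rest on few reads, and 1 read is worth about 0.165 CPM in batches 1 to 3 and 0.0433 CPM in batch 4.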
